A study of Mus musculus with 12 samples.

Results

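Ccl2, Ccl3, Ccl4, Ccl5, Ccl7, Ccl9, Ccl22, Cxcl2, Cxcl10 and Cxcl16 are 10 chemokine genes that macrophages are known for. They were taken by gene symbol from a table of RNA-seq read counts that listed 32688 genes, and all 10 were found in it. Of these, 9 passed the filter on low counts that left 18066 genes for testing, and Ccl7 did not. RAW264.7, the cell line used, derives from mouse macrophages. The counts came from cells of this line in which both transcription factor genes Tfeb and Tfe3 had been disrupted with CRISPR (double knockout, DKO), and from Null RAW264.7 cells that carried neither knockout and that the study's text calls WT. Both genotypes were sequenced with and without exposure to 100 µM etoposide for 8 h, which makes 4 groups of 3 libraries. Etoposide is a topoisomerase II poison that breaks DNA. Controls are untreated by their labels but DMSO-treated by the methods of the study. Each genotype was a single line, so replicates measure the spread between cultures or libraries of a line and not between independently made lines, and no label says whether the 3 libraries of a group came from separate cultures. The study's text calls the etoposide samples independent and does not say in what respect.

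Chemokines are small secreted proteins that guide leukocytes along concentration gradients by binding G protein-coupled receptors. The CC and CXC families are named for the spacing of their first cysteines, which are adjacent in CC chemokines and separated by another residue in CXC chemokines. Macrophages release Ccl3, Ccl4 and Ccl5 to draw monocytes and T cells, Ccl2 and Ccl7 to draw monocytes, Cxcl2 to draw neutrophils and the interferon-inducible Cxcl10 to draw activated T cells. Many of these genes respond to NF-kB, AP-1 or interferon regulatory factors. TFEB and TFE3 are related factors best known for lysosomal and autophagy genes, with further roles in innate immune cells.

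Total counts were 29837255 to 49255784 in Null control, 50172982 to 58428399 in Null etoposide, 34918422 to 58697226 in DKO control and 54507188 to 61809316 in DKO etoposide libraries. Levels are given as CPM, counts per 1000000 counts of the scaled library size. Tfe3 lay at 31.5 to 42.5 CPM in the 6 DKO libraries against 89.4 to 119 CPM in the 6 Null libraries. Tfeb lay at 3.14 to 5.25 CPM in the DKO libraries, against 7.10 to 7.95 CPM in etoposide-treated and 16.6 to 17.2 CPM in control Null libraries. The titles of the DKO etoposide libraries mention mouse embryonic fibroblasts, unlike all other labels. All 8 macrophage markers examined (Lyz2 among them) had group means over 1 CPM in each group, with a sum of 4585 to 4775 CPM in DKO etoposide libraries, and 8 fibroblast markers summed to 1.01 to 1.20 CPM there. The 8 osteoclast markers, genes of cells into which RAW264.7 cells can differentiate, summed to 4.28 to 4.70 CPM in Null control libraries and 22.8 to 28.0 CPM in DKO control libraries, and etoposide groups reached 9.60 to 10.5 (Null) and 51.4 to 53.0 CPM (DKO). Single genes carried much of the sum, with Dcstamp at up to 16.2 CPM in DKO control and Ocstamp at up to 33.4 CPM in DKO etoposide libraries. The markers did not all move alike. In control cells Ocstamp, Acp5, Dcstamp and Atp6v0d2 were higher in DKO than in Null cells, but Mmp9 was lower (log2 difference -1.17) and Ctsk differed by 0.04. The sum moved with genotype and treatment as several chemokines did, and its part in the results was not tested.

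The genes lie on 3 chromosomes (GRCm38, GENCODE M21). Ccl2 (chr11:82035571-82037453) and Ccl7 (chr11:82045712-82047525) are neighbours on the plus strand. Ccl5 (chr11:83525778-83530518, minus), Ccl9 (chr11:83572919-83578636, minus), Ccl3 (chr11:83647844-83649355, minus) and Ccl4 (chr11:83662584-83664683, plus) form a second cluster, and Cxcl16 (chr11:70453983-70459984, minus) lies apart from both. Cxcl2 (chr5:90903871-90905938, plus), Cxcl10 (chr5:92346638-92348889, minus) and Ccl22 (chr8:94745590-94751699, plus) are on other chromosomes. All are protein-coding. An exon of Art3 overlaps Cxcl10 on the opposite strand and could have supplied up to 2.7% of its counts, and Zmynd15 up to 3.67% of those of Cxcl16.

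RefSeq promoter windows (GRCm38.p6) were at hand for 5 of the 10 genes. They are shown because these 5 include the members with opposite responses to etoposide in DKO cells, Cxcl2 and Cxcl10, described below. Each is printed 5′ to 3′ on the gene's strand up to the base before the earlier of the RefSeq and GENCODE starts of transcription, from chr11:83649379-83649628 (minus) for Ccl3, chr11:83578637-83578886 (minus) for Ccl9, chr8:94745434-94745589 (plus) for Ccl22, chr5:90903649-90903870 (plus) for Cxcl2 and chr5:92348890-92349139 (minus) for Cxcl10. Capitals mark matches, on either strand, to an NF-kB motif (GGGANTTTC), an interferon-response (ISRE) motif (GAAANNGAA) or an AP-1 motif (TGANTCA).
Ccl3: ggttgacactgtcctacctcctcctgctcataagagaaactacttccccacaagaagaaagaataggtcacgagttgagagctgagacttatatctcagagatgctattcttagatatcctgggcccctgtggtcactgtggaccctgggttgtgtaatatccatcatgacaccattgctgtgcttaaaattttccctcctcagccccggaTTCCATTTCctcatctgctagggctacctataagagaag
Ccl9: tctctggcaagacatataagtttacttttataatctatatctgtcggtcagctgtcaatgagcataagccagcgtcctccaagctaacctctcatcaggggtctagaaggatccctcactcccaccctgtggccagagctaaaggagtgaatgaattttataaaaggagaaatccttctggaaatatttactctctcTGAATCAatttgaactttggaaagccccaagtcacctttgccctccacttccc
Ccl22: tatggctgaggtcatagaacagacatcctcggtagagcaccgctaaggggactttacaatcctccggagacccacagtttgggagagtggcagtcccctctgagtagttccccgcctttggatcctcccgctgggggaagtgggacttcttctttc
Cxcl2: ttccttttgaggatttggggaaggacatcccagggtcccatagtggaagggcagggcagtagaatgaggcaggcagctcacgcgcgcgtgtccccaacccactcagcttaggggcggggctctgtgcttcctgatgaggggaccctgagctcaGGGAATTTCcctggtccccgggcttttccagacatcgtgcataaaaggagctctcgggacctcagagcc
Cxcl10: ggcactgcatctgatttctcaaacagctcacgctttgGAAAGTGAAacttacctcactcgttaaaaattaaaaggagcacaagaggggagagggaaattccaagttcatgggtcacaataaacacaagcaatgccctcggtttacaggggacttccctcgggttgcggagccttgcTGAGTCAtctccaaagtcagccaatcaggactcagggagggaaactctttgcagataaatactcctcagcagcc

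The Cxcl2 window held the NF-kB motif at bases -97 to -89 counted from the RefSeq start, and this motif occurred in 1.11% of 32851 RefSeq windows. The Cxcl10 window held an ISRE motif at -213 to -205 and an AP-1 motif at -74 to -68. Ccl3 held an ISRE motif on its other strand at -39 to -31, and Ccl9 an AP-1 motif at -53 to -47. The ISRE motif occurred in 8.56% and the AP-1 motif in 7.81% of all windows. The E-box CACGTG, a sequence that TFEB and TFE3 can bind, occurred in 7.15% of all windows and in 0 of these 5. Ccl22 held none of the 4 motifs. Only these spellings were searched, and other spellings of the same motifs are not marked. A window without a match, such as that of Cxcl10 for NF-kB, may therefore hold such a site. These matches describe letters in the windows and not binding.

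After etoposide, most of these chemokine transcripts rose in both genotypes, and the sum of the 10 was highest in DKO cells. Per library the sum lay at 177 to 210.0 CPM in control and 435 to 473 CPM in etoposide-treated Null cells, and at 277 to 374 CPM in control and 787 to 987 CPM in etoposide-treated DKO cells. In the same order the means were 196 ± 17.2, 449 ± 20.6, 342 ± 56.0 and 870.4 ± 104 CPM (SD, n = 3), and no groups overlapped. Fewer producing cells and less RNA per cell cannot be told apart in such bulk samples.

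Genes were called at an adjusted p under 0.05 (limma-trend with Benjamini-Hochberg adjustment over 18066 genes). In Null cells etoposide raised 7 of the 9 tested chemokines (background: 20.9% of all tested genes were called higher) and lowered 0 (18.7% called lower), the other 2 being Ccl5 and Cxcl10. In DKO cells it raised 8 (20.2%) and lowered 1, Cxcl10 (19.1%). Ccl2, Ccl5 and Ccl22 passed the low-count filter through the groups in which they were high, so these counts do not stand for all 10 genes. The median log2 difference of the 9 was 1.61 in Null and 2.47 in DKO cells, against 0.03 in each for all genes tested.

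Between genotypes, DKO control cells held more of Ccl2, Ccl3, Ccl4, Cxcl2 and Cxcl16 (5 called higher, background 10.9%) and less of Ccl5 (1 called lower, background 8.39%) than Null control cells. After etoposide, Ccl3, Ccl4, Ccl5, Ccl9 and Cxcl16 were higher in DKO than in Null cells (5, background 15.9%) and Cxcl10 was lower (1, background 17.8%). The difference between the etoposide responses, tested as the interaction (DKO response minus Null response), was called for 4 chemokines. It was positive for Ccl3 and Ccl5 (2, background 3.07%) and negative for Cxcl2 and Cxcl10 (2, background 6.39%). Ccl5 passed the low-count filter only through the DKO etoposide group, so its calls here are not to be read against the background. The medians of the 9 were 0.73 for the genotypes in control cells, 0.81 for those after etoposide and -0.22 for the interaction, against 0, -0.01 and -0.01 for all genes. The comparisons share groups with each other and are therefore not independent.

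**Figure D1:**
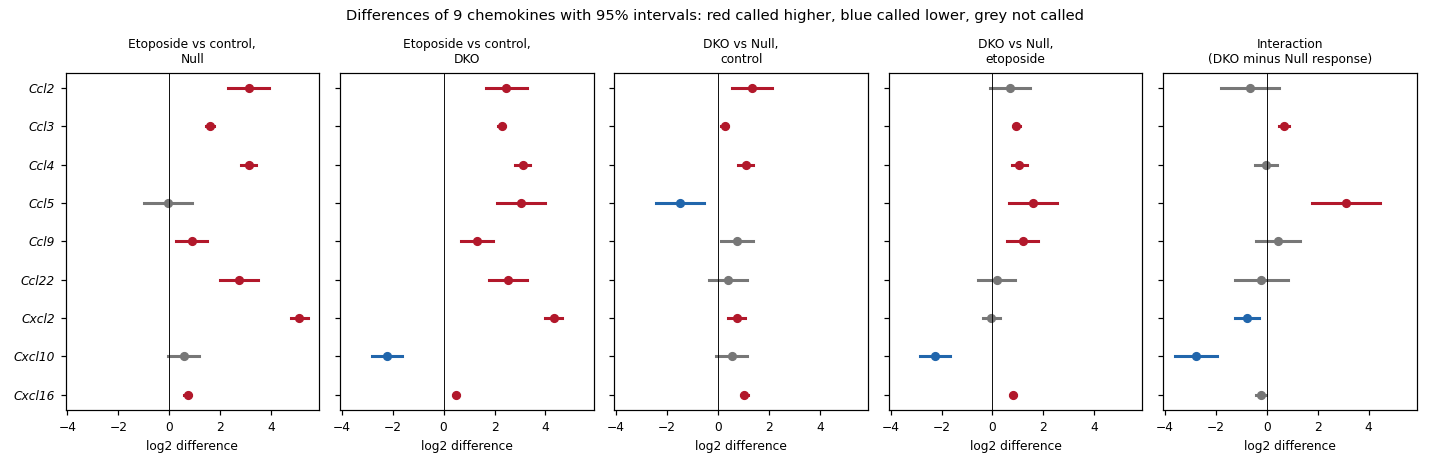
Log2 differences (x axis) of the 9 tested chemokines (rows) in 5 comparisons (panels); points are limma-trend estimates, lines are 95% intervals, and colour marks genes called higher (red), lower (blue) or not called (grey). Cxcl2 lay farthest right among the fitted etoposide responses (5.11 and 4.33 at a prior count of 3, though Ccl5 exceeded it in DKO cells with a prior count of 0.5), while Cxcl10 lay at 0.57 in Null and at -2.22 in DKO cells.

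Ccl3 and Ccl4, also known as macrophage inflammatory proteins, draw monocytes and T cells, and Ccl3 binds Ccr1. In Null control libraries Ccl3 lay at 39.7, 38.7 and 39.5 CPM, and etoposide brought it to 126, 116 and 119 CPM. In DKO libraries it went from 44.3, 49.0 and 48.4 CPM to 226, 222 and 244 CPM. The groups did not overlap, and every DKO etoposide library exceeded every other library. On the log2 CPM scale the response was 1.61 ± 0.0674 (SE; adjusted p = 4.53e-09, limma-trend) in Null and 2.29 ± 0.0674 (adjusted p = 7.32e-11) in DKO cells. Their difference was 0.68 ± 0.0954 (adjusted p = 0.000553, limma-trend), a 1.60-fold larger rise in DKO cells. The genotypes differed by 0.94 after etoposide (adjusted p = 3.54e-07, limma-trend) and by 0.26 in control cells (adjusted p = 0.0151). The control difference lost its call without Null control replicate 2 or DKO control replicate 2 or 3 (adjusted p = 0.0605, 0.0960 and 0.0523, limma-trend), on library size alone (0.0614) and with only the groups compared (0.127).

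Ccl4 was lower in level and larger in fold change. It lay at 2.27, 2.60 and 3.17 CPM in Null control and at 24.1, 23.1 and 23.9 CPM in Null etoposide libraries. DKO libraries held 6.93, 5.30 and 5.06 CPM as controls and 50.9, 52.7 and 45.4 CPM after etoposide. Each DKO library was thus above each Null library of the same treatment. Etoposide raised Ccl4 by 3.13 ± 0.139 (SE, log2; adjusted p = 7.85e-09, limma-trend) in Null and by 3.11 ± 0.139 (adjusted p = 3.33e-09) in DKO cells. The interaction was -0.02 with a 95% interval of -0.45 to 0.41 (adjusted p = 0.972, limma-trend), and the genotypes differed by 1.09 in control cells and by 1.06 after etoposide (adjusted p = 9.96e-05 and 7.57e-05, limma-trend).

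**Figure D2:**
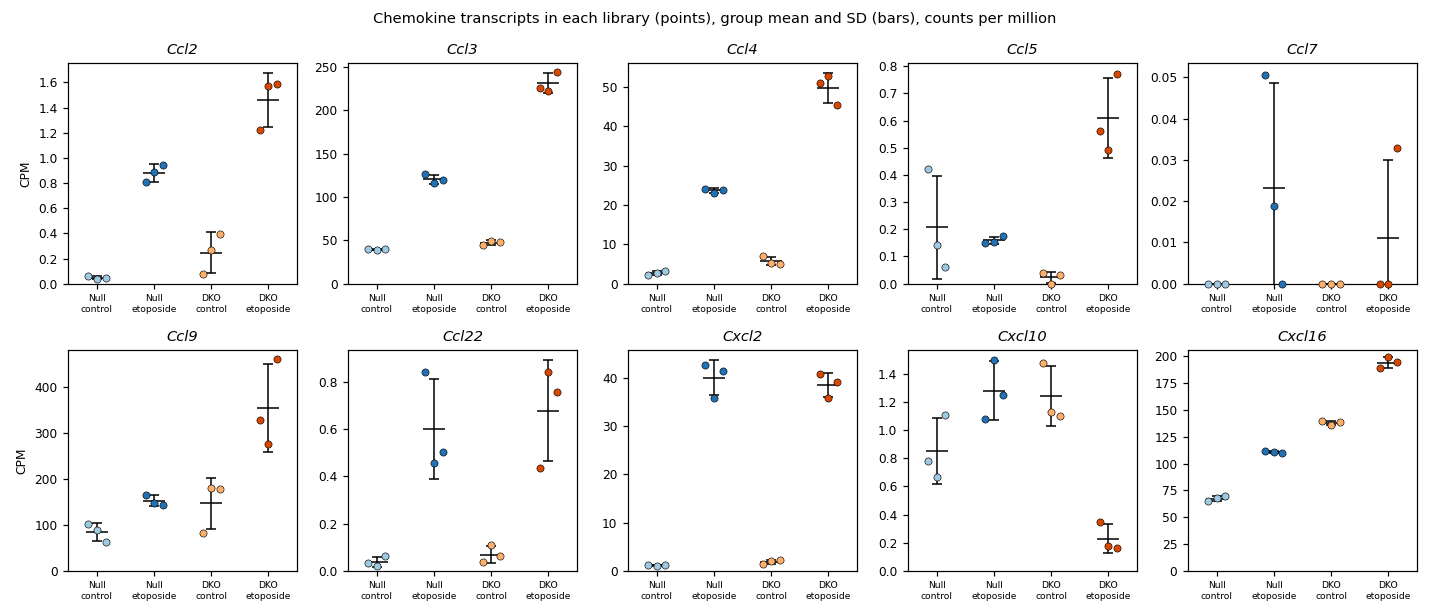
CPM (y axis, linear, its own scale in each panel) of the 10 chemokines in every library (points), with group mean and SD (bars; the lower SD bars of Ccl7 are cut at 0), n = 3 in each of the 4 groups (x axis). Ccl3, Ccl4 and Cxcl16 were highest in the DKO etoposide group, the etoposide groups of Cxcl2 overlapped, and Cxcl10 was lowest in the DKO etoposide group (0.164 to 0.345 CPM).

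Cxcl2, which attracts neutrophils through Cxcr2, had the largest fitted response to etoposide of the 9 genes in Null cells. In DKO cells it was largest at the prior count of 3, but Ccl5 exceeded it (4.51 against 4.37, log2) with a prior count of 0.5, and with edgeR, DESeq2 and limma-voom. Null control libraries held 1.13, 1.03 and 1.13 CPM and Null etoposide libraries 42.6, 35.9 and 41.5 CPM. In DKO cells the values were 1.39, 2.12 and 2.17 CPM in controls and 40.8, 35.9 and 39.1 CPM after etoposide. The etoposide groups of the genotypes overlapped, while every DKO control library was above every Null control library. The response was 5.11 ± 0.153 (SE, log2; 34.5-fold; adjusted p = 3.32e-10, limma-trend) in Null and 4.33 ± 0.153 (20.2-fold; adjusted p = 3.87e-10) in DKO cells. After etoposide the genotypes differed by -0.05 (95% interval -0.38 to 0.28; adjusted p = 0.839, limma-trend), and in control cells by 0.73 (adjusted p = 0.00437), a call lost with limma-voom (adjusted p = 0.0530) and with only the groups compared (0.0952). The interaction of -0.77 ± 0.216 (adjusted p = 0.0418, limma-trend) was near the threshold. It lost its call without any single library other than DKO control replicate 1, with values of -0.85 to -0.66, and under 15 of 21 alternatives in all.

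Cxcl10 binds Cxcr3 and is a classical interferon-response gene. It was the only member of the 9 that fell in any etoposide comparison. Null control libraries lay at 0.778, 0.666 and 1.11 CPM and Null etoposide libraries at 1.08, 1.50 and 1.25 CPM. DKO control libraries lay at 1.48, 1.13 and 1.10 CPM and DKO etoposide libraries at 0.345, 0.175 and 0.164 CPM, from 19, 10 and 10 counts. The DKO etoposide libraries were below all others, whereas the other 3 groups overlapped in part. In DKO cells Cxcl10 decreased by 2.22 (log2, SE 0.273; adjusted p = 3.69e-05, limma-trend), a 4.65-fold fall. The Null response of 0.57 had a 95% interval of -0.03 to 1.16 and did not pass (adjusted p = 0.121, limma-trend). The interaction was -2.78 ± 0.386 (adjusted p = 0.000492, limma-trend) and remained called under all 21 alternatives. The genotypes differed by -2.26 after etoposide (adjusted p = 3.79e-05, limma-trend) and by 0.53 in control cells (adjusted p = 0.228).

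Cxcl16 is made as a membrane-anchored protein that is shed by Adam10 and binds Cxcr6. It lay at 64.6, 67.9 and 69.5 CPM in Null control, 112, 110.5 and 109.9 in Null etoposide, 139.6, 136 and 139 in DKO control and 189, 199 and 195 CPM in DKO etoposide libraries. No groups overlapped, and DKO control cells held more Cxcl16 than etoposide-treated Null cells. The genotypes differed by 1.04 ± 0.0577 (SE, log2; adjusted p = 6.10e-08, limma-trend) in control cells and by 0.81 ± 0.0577 (adjusted p = 3.30e-07) after etoposide. The drug itself raised Cxcl16 by 0.72 in Null and 0.49 in DKO cells (adjusted p = 1.06e-06 and 2.51e-05, limma-trend). The interaction was -0.23 with a 95% interval of -0.41 to -0.05 (adjusted p = 0.120, limma-trend), and it was called with DESeq2 (-0.21, adjusted p = 0.0163).

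Ccl9 binds Ccr1 and is made in quantity by myeloid cells. Its libraries lay at 101, 89.7 and 62.0 CPM in Null control, 165, 147 and 143 in Null etoposide, 83.1, 181 and 177 in DKO control and 328, 275 and 460.0 CPM in DKO etoposide cells. Spread was wide, since DKO control replicate 1 lay within the Null control range and the other DKO control libraries lay above all Null libraries. The response in DKO cells was 1.32 ± 0.284 (SE, log2; adjusted p = 0.00263, limma-trend) and that in Null cells 0.88 ± 0.284 (adjusted p = 0.0273). The Null response lost its call without Null control replicate 2 or 3 or any of the Null etoposide replicates (adjusted p = 0.0517 to 0.103, limma-trend), with no filter on low counts (0.0608) and with the replicate block (0.0546). After etoposide the genotypes differed by 1.19 (adjusted p = 0.00609, limma-trend). In control cells they differed by 0.75 (95% interval 0.13 to 1.36; adjusted p = 0.0925, limma-trend), which became 1.10 (adjusted p = 0.00344) without DKO control replicate 1 and was also called with DESeq2 (0.79, adjusted p = 0.0297). The interaction was 0.45, with a 95% interval of -0.43 to 1.32 (adjusted p = 0.629, limma-trend).

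The remaining members were scarce. Ccl2, the main monocyte attractant that signals through Ccr2, had 2, 2 and 2 counts in Null control and 48, 47 and 49 counts in Null etoposide libraries. DKO libraries held 4, 15 and 13 counts as controls and 67, 90 and 97 counts after etoposide. Etoposide libraries lay above control libraries in both genotypes without overlap. Over pooled counts scaled to depth, the ratio of etoposide to control was 18.9 (95% counting interval 8.45 to 52.2) in Null and 6.50 (4.49 to 9.71) in DKO cells. These intervals cover counting error only. The fitted responses were 3.13 and 2.47 (log2; adjusted p = 2.78e-05 and 0.000176, limma-trend), with an interaction of -0.65 (95% interval -1.79 to 0.48; adjusted p = 0.566). DKO control cells exceeded Null control cells by 1.34 (adjusted p = 0.0220, limma-trend). That call was lost without Null control replicate 2 or 3 or DKO control replicate 2 or 3 (adjusted p = 0.0727, 0.0596, 0.0884 and 0.0874, limma-trend) and with limma-voom (0.0864). After etoposide the genotypes differed by 0.69 (95% interval -0.11 to 1.49; adjusted p = 0.178, limma-trend), but that difference was called under 3 of 22 alternatives, namely without DKO control replicate 1 through the shared spread (adjusted p = 0.0358), with limma-voom (0.0476) and with only the groups compared (0.00983).

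Ccl22 attracts Ccr4-bearing T cells. It went from 1, 1 and 3 counts to 50, 24 and 26 counts in Null cells and from 2, 6 and 2 counts to 24, 48 and 46 counts in DKO cells. The pooled ratio was 15.7 (95% counting interval 6.51 to 49.4) in Null and 9.67 (5.07 to 20.7) in DKO cells, and the fitted responses were 2.73 and 2.52 (log2; adjusted p = 4.39e-05 and 8.09e-05, limma-trend). The genotypes overlapped within each treatment. They differed by 0.38 (adjusted p = 0.524, limma-trend) in control cells and by 0.16 (95% interval -0.58 to 0.9; adjusted p = 0.756) after etoposide.

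Ccl5, which binds Ccr1 and Ccr3, had 13, 7 and 3 counts in Null control, 9, 8 and 9 in Null etoposide, 2, 0 and 1 in DKO control and 31, 28 and 47 in DKO etoposide libraries. Only the DKO etoposide libraries rose above the others, and DKO control libraries were below all Null libraries in CPM. In DKO cells the pooled ratio of etoposide to control was 28.9, with a 95% counting interval of 9.64 to 143 because it rests on 3 control counts. In Null cells it was 0.888 (0.487 to 1.63). The fitted responses were 3.04 (log2; adjusted p = 0.000125, limma-trend) in DKO and -0.06 (95% interval -1 to 0.88; adjusted p = 0.933) in Null cells, and the interaction was 3.1 ± 0.612 (SE; adjusted p = 0.00630, limma-trend). The interaction was called under all 21 alternatives, at 2.58 to 3.55 with single libraries left out and at 3.09 to 5.15 under the other settings. Ccl5 passed the low-count filter only through the DKO etoposide group, so this call rests on the group that admitted it. After etoposide DKO cells exceeded Null cells by 1.59 (adjusted p = 0.0130, limma-trend), a call lost without DKO etoposide replicate 3 (1.42, adjusted p = 0.0534) and with a prior count of 0.5 (adjusted p = 0.0613). In control cells DKO was lower by 1.5 (log2 difference -1.5; adjusted p = 0.0282, limma-trend), a call lost without Null control replicate 1 or 2 or DKO control replicate 2 or 3 (-1.61 to -0.98; adjusted p = 0.0515 to 0.108). Ccl7, the neighbour of Ccl2, had 0 counts in the 6 control libraries, which allows up to 0.0233 CPM over the pooled Null libraries and up to 0.0212 CPM over the DKO ones. After etoposide it had 3, 1 and 0 counts in Null and 0, 0 and 2 in DKO libraries and was not tested.

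Compared per length, as CPM per kilobase of exon, Ccl3 stood first in each group (51.3 and 157 without and with etoposide in Null cells, 61.6 and 301 in DKO cells). In Null control cells Ccl9 (27.7) and Cxcl16 (22.3) followed and overlapped, then came Ccl4 (4.06), Cxcl2 (0.532), Cxcl10 (0.379), Ccl5 (0.217), Ccl2 (0.0429), Ccl22 (0.0164) and Ccl7 at 0, with Cxcl10 and Ccl5 overlapping. In DKO control cells Ccl3, Ccl9 (48.3) and Cxcl16 (45.8) overlapped in turn. In Null etoposide cells the order per length was Ccl3, Ccl9 (49.8), Cxcl16 (36.7) and Ccl4 (35.9), of which the last 2 overlapped, and then Cxcl2 (19.3), Ccl2 (0.774), Cxcl10 (0.567), Ccl22 (0.258), Ccl5 (0.165) and Ccl7 (0.0289). In DKO etoposide cells Ccl4 (75.2) stood above Cxcl16 (64.3), and Cxcl10 (0.101) had dropped below Ccl5 (0.634) and Ccl22 (0.291).

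As shares of the summed per-length level, Ccl3 made up 48.2% ± 2.50 (SD, n = 3) in Null control and 37.3% ± 2.62 in DKO control cells, and 52.2% ± 0.0885 and 52.1% ± 1.10 after etoposide. Cxcl2 rose from 0.5% to 6.43% in Null and from 0.545% to 3.24% in DKO cells. Cxcl16 went from 21% to 12.2% in Null and from 27.8% to 11.2% in DKO cells, while Ccl4 went from 3.84% to 12% and from 5.39% to 13.1%. Shares were not tested.

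**Figure D3:**
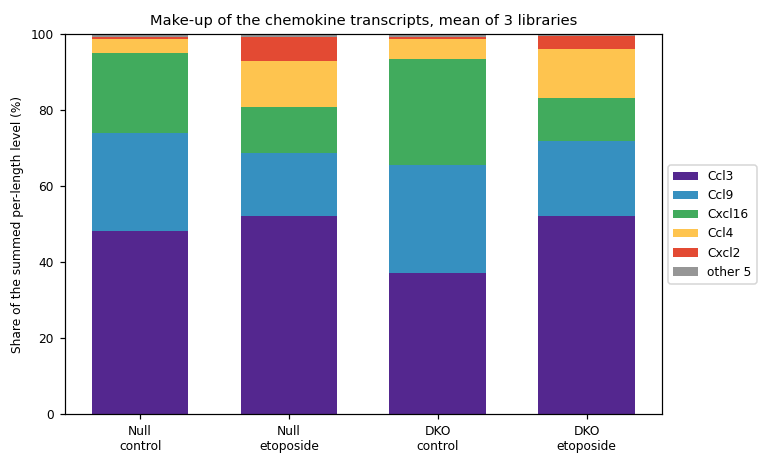
Share (y axis, percent, mean of 3 libraries) of each chemokine in the summed per-length level of the 10 genes in the 4 groups (x axis). After etoposide Cxcl2 and Ccl4 took larger shares and Cxcl16 and Ccl9 smaller ones in both genotypes, and Ccl3 made up 52.2% and 52.1%.

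Across the 12 libraries, which share the 4 group means, the log2 CPM of the chemokines other than Ccl5 and Cxcl10 correlated with each other at r = 0.61 or above, and Ccl3 with Ccl4 at 0.98. Cxcl10 correlated negatively with each of the other 8, from -0.79 with Ccl5 to -0.4 with Cxcl2. The genes most like each member over the 12 libraries were Slfn2 (r = 0.993) and Nfkbiz (0.992) for Ccl3, Smox (0.997) and Hebp2 (0.994) for Ccl4, Ube2q1 (0.995) and Psmc5 (0.99) for Ccl9, and Lxn (0.984) and C3ar1 (0.983) for Ccl2. They were Espn (0.98) and Crem (0.979) for Ccl22, E130317F20Rik (0.915) and Pik3r6 (0.91) for Ccl5, Fam198b and Robo3 (0.996 each) for Cxcl2, Xrcc1 (0.965) and Gm11527 (0.957) for Cxcl10, and Tcam1 (0.997) and Epb41l5 (0.996) for Cxcl16. These are descriptions over libraries in 4 groups, chosen as the highest among 18066 genes.

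Several receptors of these chemokines were also higher in DKO cells after etoposide. Of 23 chemokine receptor genes, 14 were tested, and etoposide raised 6 (background 20.9% of all tested genes) and lowered 1 (18.7%) in Null cells and raised 7 (20.2%) and lowered 1 (19.1%) in DKO cells. DKO against Null gave 3 higher (background 10.9%) and 4 lower (8.39%) in control cells and 7 higher (15.9%) and 4 lower (17.8%) after etoposide, and the interaction was positive for 4 (3.07%) and negative for 1 (6.39%). Ccr1, Ccr3, Ccr4, Cxcr4 and Ccrl2 passed the low-count filter through the groups in which they were high, so these counts do not stand for all 23 genes. Of the receptors called higher in DKO cells, Cxcr3 lost the call under 13 of 22 alternatives in control cells and Ccr9 under 11 of 22 after etoposide. Gm17200, which overlaps Ccr9 on the same strand, could have supplied all of the Ccr9 counts (estimated at 293% of them). The receptor medians were 0.6, 0.57, -0.14, 0.63 and 0.28 (log2) in these 5 comparisons, in the order given.

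Ccr1, the receptor of Ccl3, Ccl5, Ccl7 and Ccl9, lay at 0.259, 0 and 0.124 CPM in Null control, 1.43, 1.12 and 0.830 in Null etoposide, 0.357, 0.215 and 0 in DKO control and 9.01, 10.1 and 10.4 CPM in DKO etoposide libraries. Both etoposide groups lay above both control groups. The response was 2.94 (log2; adjusted p = 0.00406, limma-trend) in Null and 5.71 (adjusted p = 2.64e-05) in DKO cells, and the genotypes differed by 3.09 after etoposide (adjusted p = 0.00350), a call lost with a prior count of 0.5. The interaction of 2.77 did not pass (95% interval 0.69 to 4.85; adjusted p = 0.103, limma-trend).

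With etoposide Cxcr3, the Cxcl10 receptor, went in Null cells from 1.65 ± 0.491 to 4.38 ± 0.486 CPM (SD, n = 3) and in DKO cells from 2.57 ± 0.445 to 14.5 ± 1.32 CPM. The responses were 1.41 and 2.48 (log2; adjusted p = 0.000109 and 7.56e-07, limma-trend). The interaction was 1.07 (adjusted p = 0.0297, limma-trend), a call that did not hold without Null control replicate 2 (0.85), DKO control replicate 3 (0.92), replicate 1 (1.04) or 2 (1.03) of Null etoposide or replicate 1 (1.06) or 2 (1.05) of DKO etoposide. Cxcr3 therefore rose in DKO cells where its ligand Cxcl10 fell.

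Ccr2, the receptor of Ccl2 and Ccl7, lay at 4.74 ± 1.26 CPM (SD, n = 3) in Null control, 3.22 ± 0.702 in Null etoposide, 7.94 ± 0.647 in DKO control and 7.59 ± 0.679 in DKO etoposide cells. DKO exceeded Null cells by 1.24 after etoposide (log2; adjusted p = 0.000477, limma-trend) and by 0.77 in control cells (adjusted p = 0.0184), the latter lost without Null control replicate 1 (0.53) or DKO control replicate 2 (0.72) and with only the groups compared (adjusted p = 0.0606). Ccr3 had 0 counts in the 6 control libraries, 18, 23 and 31 in DKO etoposide and 2, 1 and 3 in Null etoposide libraries. Ccr4, the Ccl22 receptor, showed the opposite pattern, with 27, 18 and 25 counts in Null etoposide libraries but 0, 0 and 2 in those of DKO etoposide cells, against 1, 1 and 0 in Null control and 0 in each DKO control library. The interaction was called for Ccr3 (2.3; adjusted p = 0.00333, limma-trend) and Ccr4 (-2.46; adjusted p = 0.00364), but neither passed with edgeR (adjusted p = 1.00 and 0.920) or DESeq2 (0.258 and 0.383). Ccr3 passed the low-count filter only through the DKO etoposide group and Ccr4 only through the Null etoposide group, so these calls rest on the group that admitted them. The Ccr3 interaction equals its genotype difference after etoposide (2.3), since both control groups had 0 counts. Cxcr6, the Cxcl16 receptor, was called in none of the 5 comparisons and averaged 0.914 to 1.19 CPM over the groups, and Cxcr2 was too scarce for testing (at most 12 counts in a library).

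**Figure D4:**
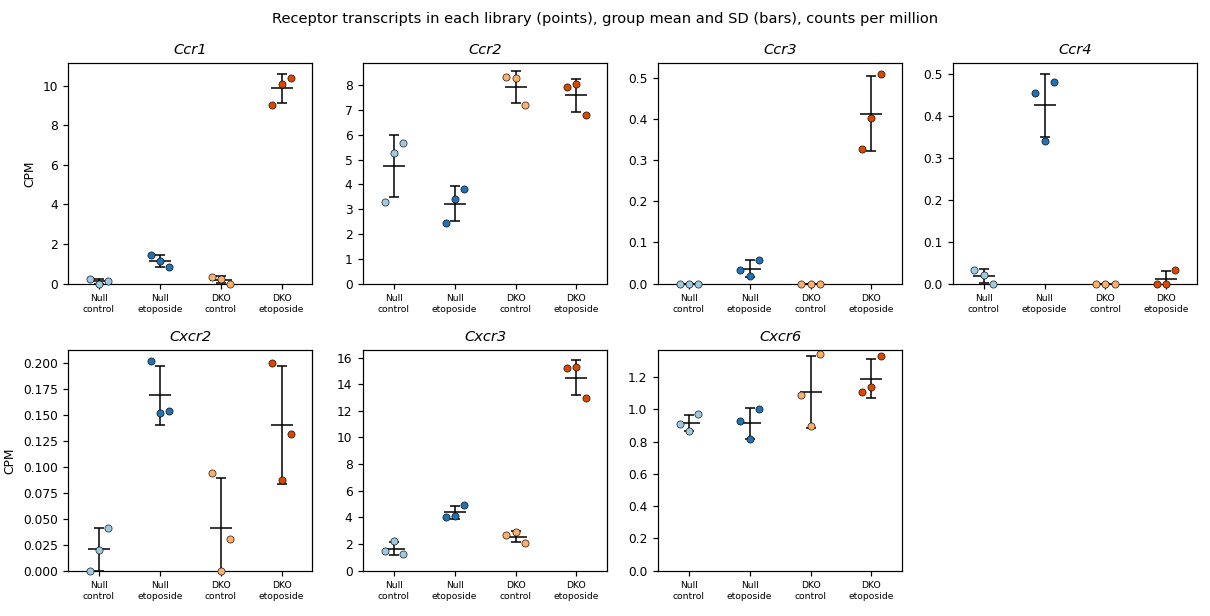
CPM (y axis, linear, its own scale in each panel) of 7 receptors of these chemokines in every library (points), with group mean and SD (bars; bars below 0 are cut), n = 3 in each of the 4 groups (x axis). Ccr1, Ccr3 and Cxcr3 were highest in the DKO etoposide group, whereas Ccr4 was seen mainly in the Null etoposide group.

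Receptors of other ligands also changed. Cx3cr1 lay at 289 ± 12.4 CPM (SD, n = 3) in Null control and 199.8 ± 16.2 in DKO control cells and at 62.7 ± 0.957 and 57.3 ± 2.96 after etoposide, and it was the receptor that etoposide lowered in both genotypes (log2 -2.2 and -1.8; adjusted p = 6.56e-10 and 1.45e-09, limma-trend). Cxcr4, the Cxcl12 receptor, had 45 to 57 counts in Null control and 71 to 117 in Null etoposide libraries, and 0, 9 and 0 in DKO control and 0, 2 and 4 in DKO etoposide libraries. The genotypes differed in Cxcr4 by -3.74 in control cells and by -4.3 after etoposide (log2; adjusted p = 8.84e-05 and 1.72e-05, limma-trend). Ccrl2, which presents chemokines without signalling, was lower in DKO cells by -1.79 and -2.3 (log2; adjusted p = 0.000130 and 1.02e-05, limma-trend). Xcr1 rose in DKO cells (2.23; adjusted p = 3.16e-06, limma-trend) but was at 0.31 in Null cells (adjusted p = 0.267), with an interaction of 1.92 (adjusted p = 0.00103). In control cells Xcr1 was lower in DKO than in Null cells (-0.93; adjusted p = 0.00637, limma-trend), a call lost with only the groups compared, and Cxcr5, the Cxcl13 receptor, was higher (0.74; adjusted p = 0.00252). Ackr4, a scavenging receptor, rose by 1.11 in Null cells (adjusted p = 0.000111, limma-trend). Overlapping genes could have supplied up to 9.52% of the Ackr4 and 3.75% of the Cxcr5 counts.

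Of 28 other chemokine ligands, 23 were found in the table and 5 were tested (Ccl6, Ccl25, Cxcl11, Cxcl14 and Cxcl17). The counts higher and lower were 1 and 1 for etoposide in Null cells (background 20.9% and 18.7%), 0 and 0 in DKO cells (20.2% and 19.1%), 2 and 1 between genotypes in control cells (10.9% and 8.39%), 1 and 1 after etoposide (15.9% and 17.8%), and 0 and 1 for the interaction (3.07% and 6.39%). Ccl6, Cxcl11 and Cxcl17 passed the low-count filter through the groups in which they were high, so these counts do not stand for the 23 genes. Cxcl11, which shares Cxcr3 with Cxcl10, rose in Null cells (0.93 on the log2 scale; adjusted p = 0.0150, limma-trend) and lay at -0.66 in DKO cells (adjusted p = 0.0689). Its interaction was -1.59 (adjusted p = 0.0183, limma-trend), from 10 to 18 counts in DKO etoposide libraries, and was not called without DKO control replicate 2 (-1.46). Cxcl14 averaged 82.6 ± 29.5 and 76.2 ± 3.17 CPM (SD, n = 3) in Null and 202 ± 84.7 and 198 ± 64.8 CPM in DKO cells, as controls and after etoposide. It was higher in DKO cells by 1.32 after etoposide (log2; adjusted p = 0.00917, limma-trend). In control cells it differed by 1.25 (adjusted p = 0.0206, limma-trend), a call lost under 6 of 22 alternatives, namely without Null control replicate 2 or 3 or DKO control replicate 2 or 3 (0.99 to 1.22), with no filter on low counts (adjusted p = 0.0664) and with only the groups compared (0.0932). Ccl6, a CC chemokine of myeloid cells, had 17 to 23 counts in Null control, 19 to 66 in Null etoposide, 3 to 8 in DKO control and 7 to 16 in DKO etoposide libraries. It was lower in DKO cells by -1.62 in control cells (log2; adjusted p = 0.0257, limma-trend), a call lost under 6 of 22 alternatives, among them without Null control replicate 1 or 3 or DKO control replicate 1 or 2 (-1.62 to -1.34). After etoposide it was lower by -1.68 (adjusted p = 0.0134, limma-trend), a call lost without replicate 1 (-1.39) or 3 (-1.5) of Null etoposide or 2 (-1.45) of DKO etoposide. Cxcl11 was higher in DKO control than in Null control cells by 1.5 (adjusted p = 0.00132, limma-trend). Cxcl17 was lower with etoposide in Null cells by -1.06 (adjusted p = 0.0237, limma-trend), a call lost without Null control replicate 1 or 2 or Null etoposide replicate 2 or 3 (-1.07 to -0.85). Cxcl9, which is induced with Cxcl10 by interferon, had 1 count in all. With etoposide Cxcl1 had 0, 0 and 2 counts in Null and 0, 0 and 7 in DKO libraries.

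Among 22 transcription regulators of chemokine genes (NF-kB, interferon regulatory, STAT, AP-1 and related factors), etoposide raised 10 (background 20.9%) and lowered 3 (18.7%) in Null cells and raised 10 (20.2%) and lowered 5 (19.1%) in DKO cells. Between genotypes 4 were higher (background 10.9%) and 6 lower (8.39%) in control cells, and 8 higher (15.9%) and 10 lower (17.8%) after etoposide, while the interaction was positive for 1 (3.07%) and negative for 6 (6.39%). In control cells the calls of Relb and Nfkb2 (higher) and Stat2 (lower) were lost under 15, 14 and 15 of 22 alternatives (highest adjusted p 0.203, 0.208 and 0.227), and after etoposide that of Relb (lower) under 11 of 22 (0.127). Nfkbiz, an atypical IkB protein that acts with NF-kB on secondary response genes, averaged 19.9 ± 2.37 and 19.5 ± 3.33 CPM (SD, n = 3) in Null and DKO control cells and 78.4 ± 3.17 and 172 ± 10.2 CPM after etoposide. Its interaction of 1.17 (adjusted p = 0.000741, limma-trend) had the sign of that of Ccl3. Egr1, an immediate-early factor, went from 27.0 ± 7.53 to 116 ± 3.15 CPM in Null and from 25.9 ± 5.07 to 9.58 ± 1.44 CPM in DKO cells. It rose by 2.13 in Null cells and fell by 1.42 in DKO cells (log2; adjusted p = 2.63e-06 and 7.58e-05, limma-trend), with an interaction of -3.55 (adjusted p = 2.42e-06).

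Tnfaip3, a deubiquitinase that restrains NF-kB signalling, lay at 15.8 ± 0.415 CPM (SD, n = 3) in Null and 3.76 ± 0.309 CPM in DKO etoposide cells, a difference of -2.06 (log2; adjusted p = 1.33e-08, limma-trend), with an interaction of -1.21 (adjusted p = 0.000159). Bcl3, an atypical IkB protein of the nucleus, was higher in DKO cells after etoposide by 1.35 (log2; adjusted p = 0.00122, limma-trend) and rose by 1.5 in DKO cells (adjusted p = 0.000483), against 0.65 in Null cells (adjusted p = 0.0593). Nfkbie, an inhibitor of NF-kB, rose by 1.17 in Null and 1.42 in DKO cells (adjusted p = 1.25e-06 and 1.75e-07, limma-trend). Irf7 and Irf8, interferon regulatory factors, were lower in DKO cells after etoposide by -1.18 and -1.07 (adjusted p = 5.24e-05 and 2.82e-07, limma-trend) and in control cells by -1.38 and -0.42 (adjusted p = 2.07e-05 and 0.00145). Fos was higher in DKO cells by 2.19 in control cells and 1.33 after etoposide (log2; adjusted p = 5.74e-07 and 3.07e-05, limma-trend). Atf3, a stress-induced factor that can repress cytokine genes, was lower in DKO cells by -1.79 and -2.48 (adjusted p = 0.000293 and 1.25e-05, limma-trend).

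Of 8 mRNA decay regulators, etoposide raised 3 and lowered 1 in each genotype (background 20.9% and 18.7% in Null, 20.2% and 19.1% in DKO cells), and the interaction was negative for 1 (6.39%) and positive for 0 (3.07%). Zc3h12a, an RNase that degrades cytokine mRNAs, rose by 1.14 in Null and 1.35 in DKO cells (log2; adjusted p = 1.00e-05 and 2.00e-06, limma-trend), and Zfp36, which binds AU-rich elements, rose by 1.07 in Null cells (adjusted p = 7.73e-05). The Zfp36 difference of 0.4 in DKO cells (adjusted p = 0.0419, limma-trend) lost its call under 10 of 22 alternatives (highest adjusted p 0.125). Among these were leaving out Null control replicate 2, any Null etoposide replicate, DKO control replicate 1 (0.24) or DKO etoposide replicate 1 (0.36) or 3 (0.38). Rc3h1, an RNA-binding protein of decay elements, rose by 0.57 in Null cells (adjusted p = 3.56e-05, limma-trend), and Zfp36l2 rose by 0.72 in DKO cells (adjusted p = 0.00219). Between genotypes 1 was higher (background 10.9%) and 0 lower (8.39%) in control cells, namely Zfp36 (0.62; adjusted p = 0.00834, limma-trend), a call lost without DKO control replicate 2 (0.51) and with only the groups compared. After etoposide 1 was higher (15.9%) and 2 lower (17.8%): Zfp36l2 at 0.49, Zfp36l1 at -1.08 and Rc3h1 at -0.23 (adjusted p = 0.0251, 0.0171 and 0.0222, limma-trend). Each of the 3 calls was lost with replicate 1 or 3 of Null etoposide left out. They were also lost without a DKO etoposide library, which was replicate 1 or 3 for Zfp36l2, 2 for Zfp36l1 and 1 or 2 for Rc3h1. An overlapping gene could have supplied up to 49.9% of the Zfp36l1 counts. Hnrnpd, another binder of AU-rich elements, fell by 1.14 and 0.82 (adjusted p = 5.85e-06 and 8.17e-05, limma-trend). Overlapping genes could have supplied up to 6.17% of the Hnrnpd counts, 2.32% of those of Irf7 and 1.8% of those of Cxcl11.

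Of 14 tested genes for chemokine receptor signalling and ligand shedding, 11 were lowered (background 18.7%) and 0 raised (20.9%) by etoposide in Null cells, and 9 were lowered (19.1%) and 1 raised (20.2%) in DKO cells. DKO against Null gave 0 higher (background 10.9%) and 5 lower (8.39%) in control cells and 4 higher (15.9%) and 3 lower (17.8%) after etoposide. Rgs1 passed the low-count filter through the Null groups, and Pik3cg, among the lower in control cells, lost its call under 11 of 22 alternatives. Rgs1 and Rgs2, which dampen G protein signalling, were lower in DKO cells by -1.9 and -1.25 in control cells (log2; adjusted p = 0.00185 and 2.33e-07, limma-trend) and by -2.39 and -1.03 after etoposide (adjusted p = 0.000202 and 7.31e-07). Gnb1, a G protein subunit, fell by 0.8 in Null cells (adjusted p = 9.41e-07, limma-trend) and was higher in DKO cells after etoposide by 0.43 (adjusted p = 0.000206). Rgs10 was also higher there (0.54; adjusted p = 0.0293, limma-trend), a call lost under 6 of 22 alternatives, among them without any Null etoposide replicate or replicate 1 or 2 of DKO etoposide (0.44 to 0.57). Dock2 and Elmo1, which together activate Rac during leukocyte migration, went from 387 ± 3.60 to 103 ± 2.58 CPM and from 94.4 ± 5.48 to 22.1 ± 0.00999 CPM (SD, n = 3) in Null cells. In DKO cells they went from 311 ± 12.2 to 119.6 ± 2.61 CPM and from 93.3 ± 1.54 to 31.9 ± 0.879 CPM. The interaction was positive for Rac2 (0.69), Elmo1 (0.55) and Dock2 (0.53), the 3 called in this list (background 3.07%; adjusted p = 0.000359, 0.00170 and 0.00143, limma-trend). Adam10, which sheds Cxcl16, fell by 0.8 in Null and 0.59 in DKO cells on the log2 scale, while Cxcl16 rose.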

How the data were processed

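The authors sequenced ribosome-depleted, stranded total RNA libraries from 12 samples and aligned read pairs with HISAT2. The labels' processing notes name featureCounts and mm10, whereas the study's methods name HTSeq with uniquely mapped pairs on a GENCODE annotation; the annotation release and strand setting are not given in the sources used here. The deposited table holds raw counts for each gene, not normalized and not pooled. Counts of genes with near-identical copies are reduced by unique mapping.

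The chemokines and the other gene lists were chosen with earlier results of these data known. Groups came from the sample titles. Symbols and positions came from GENCODE M21 (99.4% of identifiers found). filterByExpr of edgeR 4.0.16 (0.19 CPM in at least 3 libraries) kept 18066 genes holding 99.96% of the counts. Levels are CPM on TMM-scaled library sizes (factors 0.939 to 1.03). Tests used limma-trend (limma 3.58.1, R 4.3.3) with robust empirical Bayes on log2 CPM with a prior count of 3, which understates the fold change of scarce genes, in 1 model of the 4 groups with 5 contrasts. P-values are two-sided and adjusted by Benjamini-Hochberg over the genes tested and calls made under 0.05. The script was tested on simulated data with an equal spread in all groups and changes only in genes over 1 CPM. That test did not cover the scarce members. Squared differences between replicate libraries were 3.37 to 46.5 times those of counting noise, so none was a repeat sequencing of the same library. This does not tell separate cultures from separate libraries of a culture. Of each list the text names at most 5 called genes per contrast, by largest difference, with their values in other contrasts where given, and receptors of the members at or over 1 CPM, and for each member the 2 genes most like it; Cxcl1, Cxcl9, Cxcr2, Ccr9, Stat2 and Nfkb2 were named after their values were seen. Some genes of the fixed lists are not reported here, of which a receptor was also left out of its list's counts. Promoters came from RefSeq tables. Alternatives were library size alone, DESeq2 size factors, removal of mitochondrial transcripts (14.1% to 21.7% of counts), no filter, a prior count of 0.5, edgeR quasi-likelihood, DESeq2 1.42.0, limma-voom, only the groups compared, a replicate block and each library left out. RNA was isolated with either of 2 kits, with no record of which library had which, so a kit effect cannot be told apart.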

Additional observations from a re-analysis of the deposited data

Results flagged for a closer look

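These are results in which the etoposide response differed between DKO and Null cells, by the interaction term of limma-trend with Benjamini-Hochberg adjustment; values are log2 differences between the responses, over 3 libraries in each group. The tested chemokines are covered in full and each other list by at most the 5 called genes with the largest differences. Among the chemokines these were Ccl3 (0.68, adjusted p = 0.000553, limma-trend), Ccl5 (3.1, 0.00630), Cxcl2 (-0.77, 0.0418) and Cxcl10 (-2.78, 0.000492), and the other ligand was Cxcl11 (-1.59, 0.0183). Ccl3 rose more in DKO cells, Ccl5 rose in DKO cells only, Cxcl2 rose less from a higher control level, and Cxcl10 fell in DKO cells only. Ccl5 passed the low-count filter only through the DKO etoposide group.

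Among receptors the interaction was called for Ccr3 (2.3), Ccr4 (-2.46), Cxcr3 (1.07), Cx3cr1 (0.4) and Xcr1 (1.92). Of these, Ccr3 passed the low-count filter only through the DKO etoposide group and Ccr4 only through the Null etoposide group. Ccr3 and Ccr4 lost the call with edgeR and DESeq2 (highest adjusted p 1.00 and 0.920), and Ccr4 also with a prior count of 0.5. Cxcr3 lost it under 6 of 21 alternatives (highest adjusted p 0.0797), each with a library left out, and Cx3cr1 under 9 of 21 (highest 0.0792), among them without Null control replicate 2 or 3, DKO control replicate 3, any Null etoposide replicate or DKO etoposide replicate 2 (0.35 to 0.48 over all libraries left out).

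Among regulators the interaction was called for Relb (-0.92), Nfkbiz (1.17), Tnfaip3 (-1.21), Fos (-0.86), Egr1 (-3.55) and, of the mRNA decay genes, Rc3h1 (-0.44). Nfkb2 (-0.67, adjusted p = 0.00166, limma-trend) and Irf8 (-0.65, 0.00158) were called too, with smaller differences than the other regulators, and were named after their values were seen. Fos lost the call under 9 of 21 alternatives (highest adjusted p 0.0840), among them library size alone, the replicate block and leaving out replicate 1 or 2 of Null control, 2 of DKO control, 2 or 3 of Null etoposide or 1 or 3 of DKO etoposide cells (-1 to -0.68 over all libraries left out). Relb lost it with the replicate block (adjusted p = 0.0501) and without DKO control replicate 2 (0.0544), and Rc3h1 without replicate 1 of either etoposide group (0.0583 for Null, 0.0514 for DKO). The interaction was also called among signalling genes for Rac2 (0.69), Dock2 (0.53) and Elmo1 (0.55). Cxcl11 lost its call without DKO control replicate 2 (-1.46), and Cxcl2 under 15 of 21 alternatives. Tfeb itself had an interaction of 1.16, because it fell in Null cells and stayed at 4.40 and 4.34 CPM in DKO cells. Across genes, squared differences of DKO control replicate 1 from replicates 2 and 3 were 42.0 and 46.5 times counting noise. Between DKO control replicates 2 and 3 the value was 6.30, and between Null control replicates 1 and 3 it was 39.2. Groups of 3 libraries are too small for a test of single outlying libraries.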

How the results depend on the processing

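Over the 45 chemokine results, 918 of 977 values under the alternatives kept their direction and their side of the threshold, 40 lost the call, 6 gained it and 13 changed sign. Of 3590 values for 164 called list results, 3371 were kept, 219 lost the call and 0 changed sign. No scaling moved the median of all genes by over 0.1.

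The sign changes were in differences near 0 that no setting called. The Null response of Ccl5 was 0.01 with a prior count of 0.5, 0.12 with limma-voom and -0.51 to 0.49 with single libraries left out. The interaction of Ccl4 was 0.02 on library size alone and -0.15 to 0.14 with single libraries left out. With single libraries left out, the interaction of Ccl22 was -0.39 to 0.06 and the genotype difference of Cxcl2 after etoposide -0.12 to 0.01.

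Between genotypes in control cells, several calls depended on the setting. With only the groups compared, 2031 genes were called in place of 3490, with 2 chemokines higher and 0 lower; Ccl2, Ccl5 and Ccl22 did not pass the filter in those groups and had no value there. limma-voom called 3 chemokines higher, and single libraries left out gave 3 to 6 higher (3 without Null control replicate 2 or DKO control replicate 2 or 3) and 0 to 1 lower (0 without Null control replicate 1 or 2 or DKO control replicate 2 or 3). Chemokines with a negative interaction numbered 1 under DESeq2 size factors, no filter on low counts and limma-voom, and 1 to 2 with single libraries left out, because the call of Cxcl2 was lost, and 3 with the DESeq2 Wald test, where Cxcl16 was called (-0.21, adjusted p = 0.0163). With mitochondrial transcripts removed, the summed level was 240.1 CPM in Null control, 545 in Null etoposide, 417 in DKO control and 1059 in DKO etoposide cells, and the order of the groups was unchanged. The causes were not tested, except that fewer samples enter the fits with only the groups compared or with a library left out.

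The replicate numbers did not pair the libraries: same-numbered libraries correlated at -0.54 to 0.39 in their deviations from the group means, and 1 of 18 pairs was over 0.1. With the replicate block, 1 chemokine had a negative interaction, since Cxcl2 was not called (adjusted p = 0.0812, limma-trend), and the Null response of Ccl9 was not called (0.0546). Ccl2, Ccl5, Ccl7 and Ccl22 are limited by depth, with under 20 counts in each control library.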
